A study of Homo sapiens with 4 samples.

Results

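The genes described here encode the machinery that makes and trims RNA ends in the human nucleus: the cleavage and polyadenylation factors, the Integrator complex and the RNA exosome. They were picked by symbol. Every gene of the table whose symbol began with CPSF, CSTF, INTS or EXOSC followed by a digit was taken, together with DIS3, XRN2, PCF11, CLP1, NUDT21, FIP1L1, SYMPK, WDR33 and PABPN1. The rule found 44 of the 23217 gene symbols in the table. Of these, 41 had a mean level of at least 1 FPKM over both conditions, as did 12334 symbols in all. FPKM counts fragments scaled to transcript length and to the mapped fragments of the library, so levels can be set side by side between genes of different length. Base composition is not part of that scaling. The remaining 3 symbols, CPSF4L, INTS4L1 and INTS4L2, lay below that minimum.

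The study lowered SNRNP40, a subunit of the U5 particle of the spliceosome, in LV-M100 cells and sequenced their total RNA. LV-M100 is a clonal subpopulation of the breast cancer line MDA-MB-231, so the values describe a single clone. Control cells received NC1 (IDT) in replicate 1 and BLOCK-iT Fluorescent Oligo (Life Technologies) in replicate 2, and depleted cells received siSNRNP40 #1 in replicate 1 and siSNRNP40 #2 in replicate 2. All 4 libraries followed a Lipofectamine transfection, were taken 48 h later and were depleted of ribosomal RNA with Ribo-Zero Gold. The deposited table gives a single FPKM per transcript and condition, in which the authors had joined both libraries. Values of single libraries and their depth are not given there, so no standard deviation, interval or test was computed for any value here, and the authors' own test columns were not used. A fold change compares these pooled values only, and no effect can be assigned to either siRNA sequence.

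In background terms, most human messenger RNAs end where the cleavage and polyadenylation machinery cuts the nascent transcript and a poly(A) tail is added. CPSF reads the AAUAAA hexamer and cuts, CstF and CFIm read the sequences around it, CFIIm joins for cleavage, and the exonuclease XRN2 then degrades the downstream piece. Integrator holds a related endonuclease that processes the ends of small nuclear RNAs and attenuates promoter-proximal transcription, and the exosome degrades or trims RNA from its 3′ end. Splicing and polyadenylation are physically coupled, which is what makes the levels of these genes of interest after loss of a spliceosomal protein.

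SNRNP40 itself stood at 6.12 FPKM after depletion and at 40.4 FPKM in control cells, a log2 fold change of -2.72 that corresponds to a level 84.9% lower. The 8 genes listed as high in MDA-MB-231 all lay between 115 and 1058 FPKM, among them the mesenchymal gene VIM at 733 and 750 FPKM in depleted and control cells and the epithelial keratin KRT18 at 131 and 158 FPKM. CAV1, also of that list, was lower after depletion at 198 and 285 FPKM (log2 fold change -0.53). ESR1, PGR, CDH1, KRT5 and KRT14 lay at or below 0.098 FPKM in both conditions, as did PTPRC, CD3E and HBB, which mark blood cells. ERBB2 and EPCAM, which are usually low in MDA-MB-231, were present at 6.56 and 10.6 FPKM in control cells.

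The siRNAs are shown because they define the depleted condition, and they were searched for in the transcripts of the members. Each printed strand of 18 bases is identical to the SNRNP40 messenger, starting at base 671 of the annotated transcript for siSNRNP40 #1 and at base 290 for siSNRNP40 #2. The guide strand below is the reverse complement of the printed strand. Capitals mark guide bases 2 to 8, the seed, on the assumption that the guide starts opposite the last printed base.
siSNRNP40 #1, printed strand: ggaauagacaaugauauc
siSNRNP40 #1, guide strand: gAUAUCAUugucuauucc
siSNRNP40 #2, printed strand: ggauuugaccgacugaua
siSNRNP40 #2, guide strand: uAUCAGUCggucaaaucc
The longest stretch that siSNRNP40 #1 shared with an annotated transcript of the 41 expressed members was 8 bases, and that of siSNRNP40 #2 was 9 bases, in INTS7. A site for the seed of siSNRNP40 #1 occurred in the 3′ untranslated region of 5 of the 41 members (CSTF2, CSTF2T, DIS3, INTS12 and INTS6), or 12.2%, beside 12.3% of 10979 expressed genes. A site for the seed of siSNRNP40 #2 occurred in 3 of the 41 (CPSF2, CPSF6 and INTS7), or 7.32%, beside 8.85%. The members with a seed site of siSNRNP40 #1 had a median log2 fold change of 0.056 and those without of -0.020, while over all genes these medians were -0.085 and 0.0076. For siSNRNP40 #2 the medians were -0.13 and 0.0083 in the members, and -0.051 and 0.0021 over all genes. A heptamer match is a description of the sequence and not evidence of silencing.

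None of the 41 expressed members passed a log2 fold change of 0.5 in either direction, a change of 1.41-fold. Among all 12334 expressed genes, 646 (5.24%) lay above 0.5 and 624 (5.06%) lay below -0.5. Of the 41 members, 38 had a mean of 5 FPKM or more, and among the 8559 genes at that level 5.85% passed 0.5 in either direction, against 10.3% of all expressed genes. None passed an absolute log2 fold change of 1, against 1.47% of all genes. The members ran from -0.26 for EXOSC5 to 0.34 for INTS5, with 20 above 0, 21 below 0 and a median of -0.00051. The median of all expressed genes was 0.0034.

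The members also lay closer to 0 than the bulk of the transcriptome did. Their median absolute log2 fold change was 0.12, beside 0.17 over all expressed genes and 0.15 over the genes at 5 FPKM or more. The standard deviation was 0.16 over members, 0.34 over all genes and 0.27 over the genes at 5 FPKM or more. Nevertheless, 73.8% of all expressed genes fell within the range that the members spanned, or 79.9% of those at 5 FPKM or more, so a small fold change was the common case. The summed FPKM of the members was 1140.5 after depletion and 1129.1 in control cells.

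**Figure D1:**
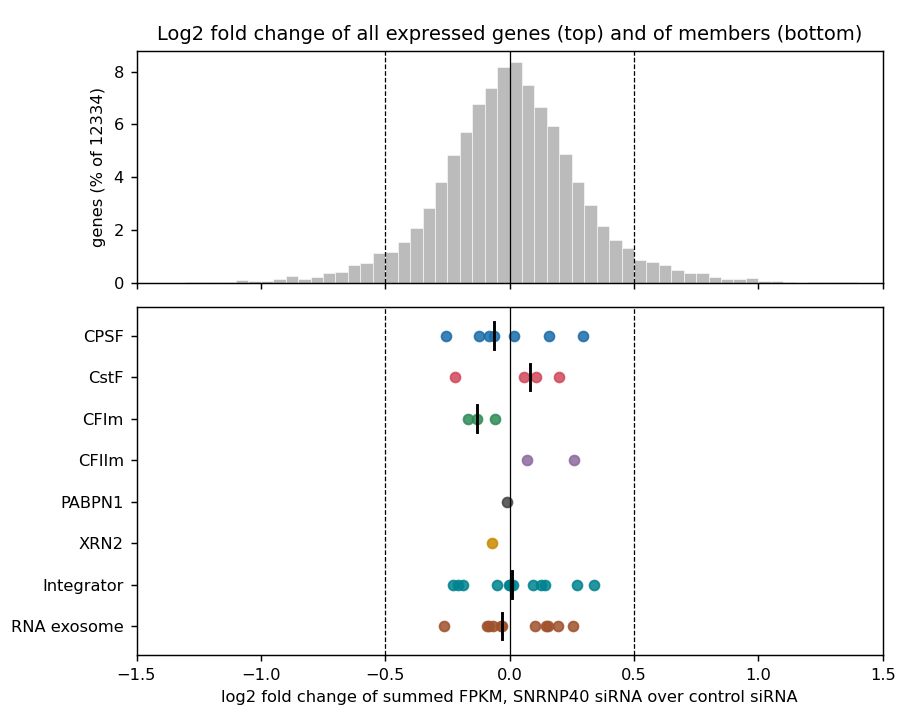
Distribution of the log2 fold change of summed FPKM, SNRNP40 siRNA over control siRNA, for all 12334 expressed genes (top, percent of genes per bin) and for the 41 members by complex (bottom, 1 point per gene, vertical bar at the median of complexes with more than 2 genes). Every member lies between -0.26 and 0.34, inside the dashed lines at 0.5 and -0.5.

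Levels differed far more between members than between conditions. XRN2, the 5′ to 3′ exonuclease of transcription termination on chromosome 20 (21283942 to 21370463, build hg19), had the highest mean level, with 95.3 FPKM after depletion and 100.2 FPKM in control cells. After depletion EXOSC9 stood slightly higher, at 98.6 FPKM. INTS9 had the lowest, at 2.33 and 2.41 FPKM. The means of XRN2 and INTS9 lay 41.3-fold apart, whereas the largest ratio between conditions for any expressed member was 1.27, in INTS5.

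**Figure D2:**
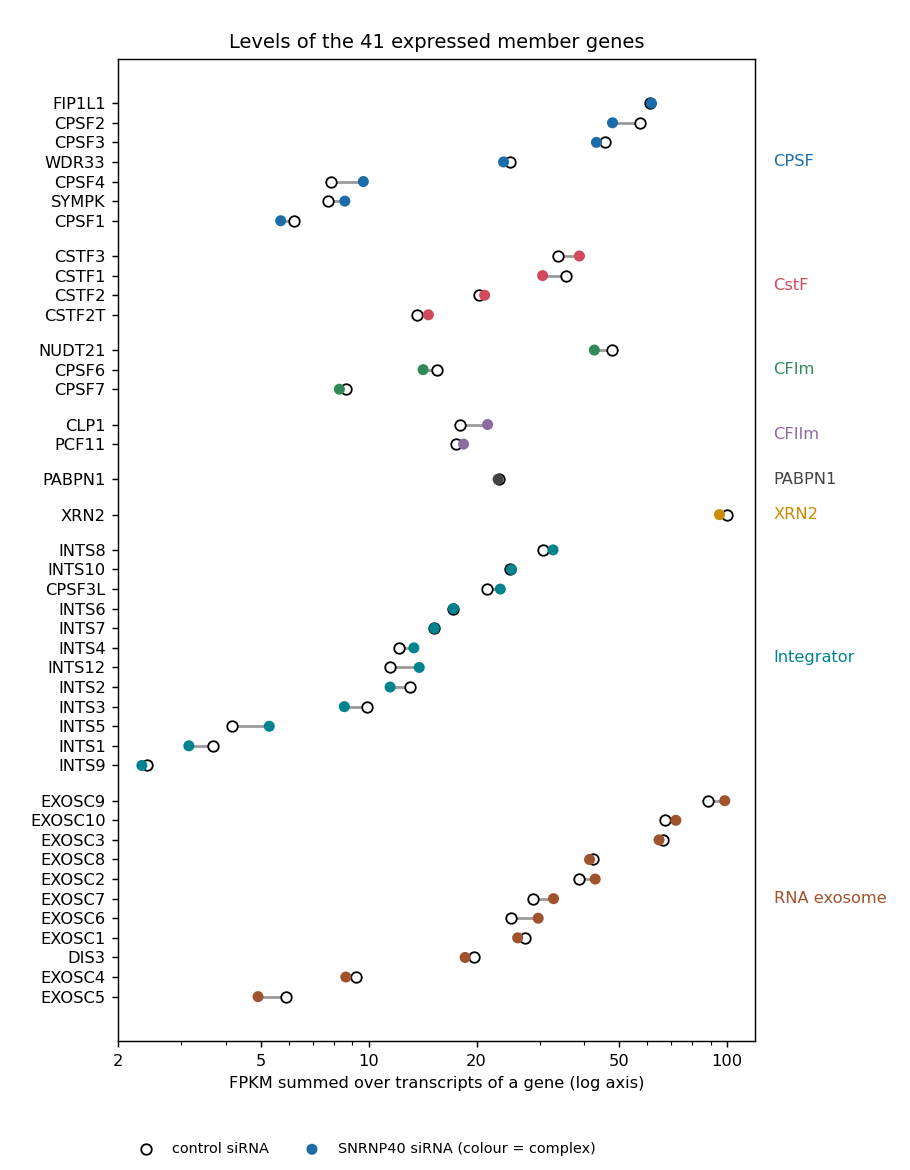
Summed FPKM (log axis) of the 41 expressed members in control cells (open circles) and SNRNP40-depleted cells (filled circles), grouped by complex and ordered by level. The circles of a gene lie close together, while the genes range from INTS9 near 2 FPKM to XRN2 near 100 FPKM.

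CPSF, with 7 expressed members, had a median log2 fold change of -0.063, with 3 members above 0 and 4 below. FIP1L1, which links CPSF to poly(A) polymerase, was the most abundant at 61.5 FPKM after depletion and 60.8 FPKM in control cells, a log2 fold change of 0.016. CPSF1, the large scaffold subunit, was the least abundant at 5.68 and 6.18 FPKM, a log2 fold change of -0.12. These lay 10.3-fold apart in mean level although their products sit in the same complex. FIP1L1 shared 28.9% of its 50-base stretches with an unnamed annotated gene, so its level is uncertain. The widest differences between conditions were those of CPSF4, a zinc finger protein that contacts the AAUAAA hexamer, and CPSF2, the inactive partner of the endonuclease. CPSF4 stood at 9.66 FPKM after depletion and 7.87 FPKM in control cells (log2 fold change 0.30). CPSF2 stood at 47.9 and 57.1 FPKM (log2 fold change -0.25).

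The other expressed CPSF genes lay between these, and they are given for their roles after their values were known. CPSF3, the endonuclease that makes the cut, was listed at 43.2 FPKM after depletion and 45.8 FPKM in control cells, and WDR33, which binds the hexamer together with CPSF4, at 23.8 and 24.9 FPKM. SYMPK, the scaffold symplekin, was listed at 8.58 and 7.69 FPKM. The log2 fold changes of these genes were -0.083, -0.063 and 0.16. Hexamer recognition was thus represented by a subunit above 0 and a subunit slightly below it. CPSF4L, a paralogue of CPSF4, lay below the minimum at 0.329 and 0.461 FPKM.

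CstF, the factor that binds the GU-rich element downstream of the cut, showed no common direction among its 4 genes, with 3 above 0 and a median of 0.081. That median was -0.059 where the most abundant transcript stood in place of the sum. CSTF3, the subunit that bridges the others, stood at 38.7 FPKM after depletion and 33.7 FPKM in control cells (log2 fold change 0.20, or -0.17 by its most abundant transcript). CSTF1, the WD40 repeat subunit, lay on the other side of 0, at 30.6 and 35.6 FPKM (log2 fold change -0.22, or -0.41 by its most abundant transcript). CSTF2, the RNA-binding subunit, was at 21.1 and 20.3 FPKM, and its intronless paralogue CSTF2T at 14.7 and 13.6 FPKM, log2 fold changes of 0.056 and 0.11. The ratio of CSTF2 to CSTF2T was 1.44 after depletion and 1.49 in control cells, so the balance of these paralogues differed little. They shared no stretch of 50 bases in their annotated transcripts.

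CFIm, which binds UGUA elements upstream of the cut and is known for steering the choice between proximal and distal poly(A) sites, was the only complex of several genes with every member below 0. NUDT21, its RNA-binding subunit, was at 42.7 FPKM after depletion and 47.9 FPKM in control cells (log2 fold change -0.17). CPSF6, the larger of its alternative partners, was at 14.2 and 15.5 FPKM (log2 fold change -0.13). CPSF7, the other partner, was at 8.28 and 8.62 FPKM (log2 fold change -0.058). All these lay far inside 0.5, and 29.4% of all expressed genes had a lower log2 fold change than CPSF6, the median of the complex. The ratio of NUDT21 to CPSF6 was 3.01 and 3.08, and that of CPSF6 to CPSF7 was 1.71 and 1.80. NUDT21 shared 61.6% of its 50-base stretches with an unnamed annotated gene, so its level is uncertain.

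CFIIm, which completes the cleavage complex, had both of its genes above 0. CLP1, an RNA kinase that also belongs to the tRNA splicing endonuclease, stood at 21.5 FPKM after depletion and 17.9 FPKM in control cells (log2 fold change 0.26). PCF11, which connects the complex to the tail of RNA polymerase II, stood at 18.4 and 17.5 FPKM (log2 fold change 0.072). Against all expressed genes, 83.8% had a lower value than CLP1 and 61.2% a lower value than PCF11.

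PABPN1, the nuclear poly(A) binding protein that sets tail length, was nearly equal in both conditions, at 23.0 and 23.1 FPKM (log2 fold change -0.0097). Its level is uncertain because 79.4% of its 50-base stretches also occur in the read-through gene BCL2L2-PABPN1. That read-through symbol was listed at the same locus at 55.3 FPKM after depletion and 53.8 FPKM in control cells. Counted together, they came to 78.2 and 76.9 FPKM, a log2 fold change of 0.024, so either way of counting gave a difference close to 0. XRN2, whose levels are given above, had a log2 fold change of -0.072.

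Integrator had 12 expressed genes under the symbols picked, with 7 above 0, 5 below and a median of 0.0083, beside 0.0034 over all genes. That median was 0.11 where the most abundant transcript stood in place of the sum, beside 0.0092 over all genes. Subunits named later were counted in a separate list, given below. INTS8, a subunit of the phosphatase module, was the most abundant at 32.7 FPKM after depletion and 30.6 FPKM in control cells (log2 fold change 0.095). INTS5, a structural subunit, had the largest log2 fold change of all members, 0.34, from 4.17 FPKM in control cells to 5.28 FPKM after depletion. It lies on chromosome 11 (62414320 to 62420774, build hg19), and 89.2% of all expressed genes had a lower value. INTS1, the largest subunit, had the lowest value of the complex at 3.15 and 3.69 FPKM (log2 fold change -0.23). Thus both extremes of Integrator were among its 3 least abundant genes, the remaining one being INTS9.

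Several other Integrator genes are given for their roles after their values were known. CPSF3L, an older symbol of INTS11, encodes the endonuclease of the complex and was at 23.3 FPKM after depletion and 21.4 FPKM in control cells (log2 fold change 0.13). INTS9, its inactive partner, had a log2 fold change of -0.049, and INTS4, which binds the pair of them, was at 13.4 and 12.1 FPKM (log2 fold change 0.14). The value of INTS9 was 0.72 by its most abundant transcript, so that whether the 3 subunits of this cleavage module lay on the same side of 0 depended on how transcripts were combined. INTS4 shared 32.3% of its 50-base stretches with other annotated genes, mainly a pseudogene listed in the table as INTS4L2. The level of INTS4 is therefore uncertain as well. INTS4L2 was at 0.329 and 0.659 FPKM and INTS4L1 at 0.145 and 0.254 FPKM, both below the minimum.

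The other expressed Integrator genes lay between these. INTS12, a PHD finger protein, had the second highest value of the complex, 0.27, at 13.8 and 11.5 FPKM. INTS3, which also acts in a DNA damage complex with single-stranded DNA binding proteins, and INTS2 had values of -0.21 and -0.19. INTS6, INTS7 and INTS10 were within 0.02 of 0.

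The exosome had 11 expressed genes with 5 above 0, 6 below and a median of -0.031, which was 0.065 where the most abundant transcript stood in place of the sum. Its core is a ring of 6 subunits and a cap of 3, none of them catalytic in human cells. EXOSC9, a ring subunit, was the most abundant at 98.6 FPKM after depletion and 88.7 FPKM in control cells (log2 fold change 0.15). EXOSC5, another ring subunit, was the least abundant at 4.91 and 5.89 FPKM and had the lowest log2 fold change of all members, -0.26. It lies on chromosome 19 (41892276 to 41903256, build hg19), and 15.4% of all expressed genes had a lower value. The ratio of EXOSC9 to EXOSC5 was 20.1 after depletion and 15.0 in control cells. EXOSC6, a further ring subunit encoded by a single exon, had the highest log2 fold change of the exosome, 0.25, at 29.7 and 24.9 FPKM. The ring therefore held both the highest and the lowest value of the complex.

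The remaining exosome genes are again given for their roles after their values were known. The ring subunits EXOSC4, EXOSC7 and EXOSC8 had log2 fold changes of -0.091, 0.19 and -0.031, and the cap subunits EXOSC1, EXOSC2 and EXOSC3 had -0.066, 0.15 and -0.033. EXOSC4 shared 89.9% of its 50-base stretches with an unnamed annotated gene, and its level is uncertain. The catalytic subunits were EXOSC10, the exonuclease enriched in the nucleolus, at 72.0 FPKM after depletion and 67.1 FPKM in control cells, and DIS3, the exonuclease and endonuclease attached to the ring, at 18.6 and 19.7 FPKM. Their log2 fold changes were 0.10 and -0.082, and the ratio of EXOSC10 to DIS3 was 3.88 after depletion and 3.41 in control cells.

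How each gene's FPKM was divided among its transcripts was not used to choose the members. Of the 41 expressed members, 23 were listed with a single transcript and 18 with several, and 60 single transcripts of members had a mean of at least 1 FPKM. The table gives assembled transcripts without their exon structure, so a transcript is named here only by its order in the table. Only 3 of the 60 member transcripts passed an absolute log2 fold change of 1, against 10.5% of 16691 transcripts. None of the 3 had 1 FPKM in both conditions, and they were singled out after their values were seen.

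These transcripts belonged to DIS3 and EXOSC7. The smaller transcript of DIS3 was at 0.972 FPKM after depletion and 2.84 FPKM in control cells (log2 fold change -1.55), while the larger was at 17.6 and 16.8 FPKM. Its loss of share therefore left the gene total nearly where it was. In EXOSC7, transcript 2 was at 3.72 FPKM after depletion and 0.739 FPKM in control cells (log2 fold change 2.33). Transcript 3 of EXOSC7 was listed at 0.00138 and 2.55 FPKM. The minor transcripts of EXOSC7 thus exchanged places while its main transcript, at 29.1 and 25.4 FPKM, held 88.7% and 88.5% of the gene. Whether that exchange reflects RNA or the division of shared fragments was not tested.

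The most abundant transcript differed between conditions in 1 of the 18 members with several transcripts, CSTF3, against 14.8% of 5282 such genes in all. At 5 FPKM or more it differed in 1 of 17 members, against 11.0% of all such genes. In CSTF3 (chromosome 11, 33106130 to 33183037, build hg19), transcript 1 was at 15.6 FPKM after depletion and 17.6 FPKM in control cells. Transcript 2 was at 17.4 and 11.6 FPKM and transcript 3 at 5.75 and 4.52 FPKM. The share of transcript 1 was 40.2% after depletion and 52.1% in control cells, and that of transcript 2 was 44.9% and 34.5%. The higher total of CSTF3 after depletion thus came from transcripts 2 and 3. CSTF3 is known to make a short product from a poly(A) site in an intron, but which transcript of the table that would be was not determined.

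A transcript share moved by at least 20 percentage points in 1 of the 18 members, INTS9, against 20.7% of all genes with several transcripts. At 5 FPKM or more it did so in 0 of 17 members, against 14.5% of all such genes. In INTS9, transcript 3 was at 0.211 FPKM after depletion and 1.12 FPKM in control cells. Transcript 4 was at 2.12 and 1.29 FPKM, a shift of 37.5 percentage points. INTS9 was the least abundant member, so this shift concerned about 1 FPKM. At 10 percentage points, 4 members passed, against 41.0% of all such genes, with CSTF3 at 11.9, INTS2 at 11.8 and INTS6 at 10.6. The transcripts of INTS2 were at 7.82 and 3.66 FPKM after depletion and at 10.4 and 2.63 FPKM in control cells. The median of the largest share change per gene was 3.82 percentage points in the members and 7.35 in all genes, without matching for level.

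**Figure D3:**
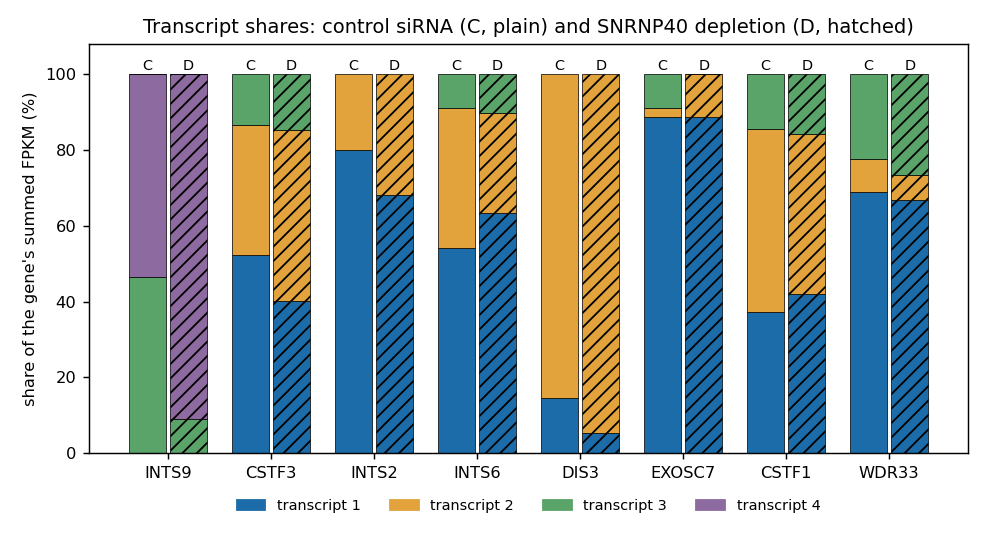
Share of each gene's summed FPKM (%) held by its transcripts in control cells (C, plain bars) and after SNRNP40 depletion (D, hatched bars), for the 8 members with the largest share change. INTS9 changed by 37.5 percentage points, and only CSTF3 changed its most abundant transcript.

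The base composition of the members went with their level, which was not part of the choice. All 41 expressed members were matched to a canonical GENCODE transcript, as were 91.9% of all expressed genes. Spearman's rho between GC content and mean FPKM was -0.58 across the 41 members and -0.23 across 11331 genes, a description over genes of the same libraries. The 27 members with under 50% GC had a median of 27.3 FPKM and lay between 12.3 and 97.8 FPKM. The 14 members with 50% GC or more had a median of 8.61 FPKM and lay between 2.37 and 30.8 FPKM. Every member under 12 FPKM, a bound set after the values were seen, thus had 50% GC or more. Among them were INTS1, INTS5, INTS9, CPSF1 and EXOSC5. The same division of all genes gave medians of 14.7 and 7.46 FPKM. Whether the relation lies in RNA levels or in the yield of the libraries was not tested, which also limits level contrasts between genes.

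**Figure D4:**
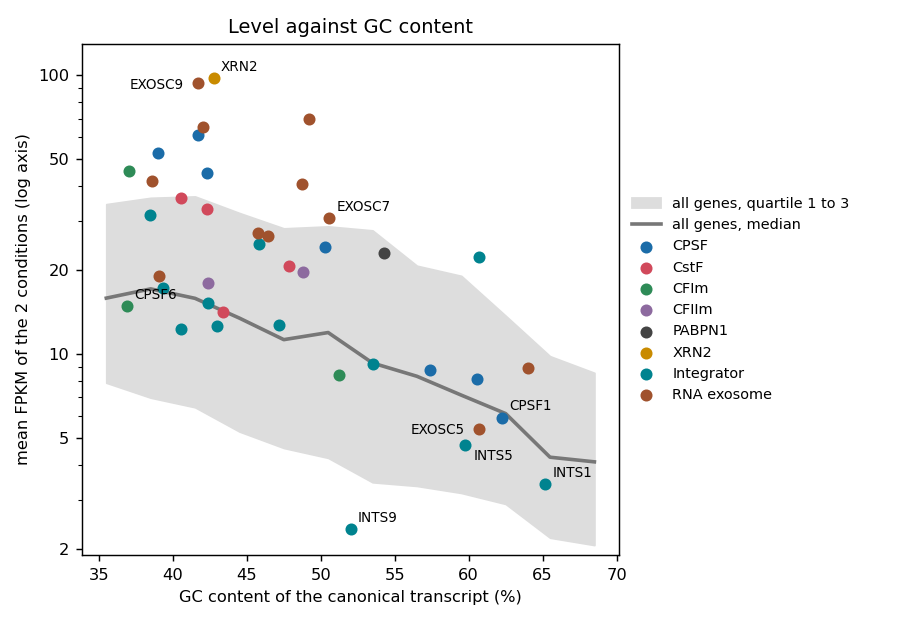
Mean FPKM of both conditions (log axis) against the GC content (%) of the canonical transcript for the 41 expressed members, with the median and the range from quartile 1 to quartile 3 of all expressed genes in grey. Members with under 50% GC have a median of 27.3 FPKM and those with 50% or more of 8.61 FPKM.

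Since SNRNP40 acts in splicing, the fold changes were also set against the number of exons, a description added after the values were seen. The 5 members with at most 3 exons were INTS5, CLP1, EXOSC6, CSTF2T and EXOSC4, and 4 of them lay above 0, with a median log2 fold change of 0.25 and a range from -0.091 to 0.34. INTS5, CLP1 and EXOSC6 held the highest values of their complexes. Among all 1484 expressed genes with at most 3 exons, 56.1% lay above 0 and the median was 0.050. Of the 36 members with 4 exons or more, 16 lay above 0 and the median was -0.020. The members with 4 to 9 exons had a median of -0.021 and those with 10 to 19 exons one of 0.0032, beside 0.013 and -0.014 over all genes. The 13 members with at least 20 exons had a median of -0.063, beside -0.034 over 1686 genes. The medians of the members thus did not fall steadily with exon number.

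Across genes the relation was weak. Spearman's rho between log2 fold change and exon number was -0.23 over the 41 members and -0.10 over 11331 genes, and with transcript length it was -0.32 and -0.14. The GC content went with the fold change at 0.11 in the members and 0.21 in all genes. Exon number, length and GC content are related to each other, and their parts in the fold change were not tested.

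**Figure D5:**
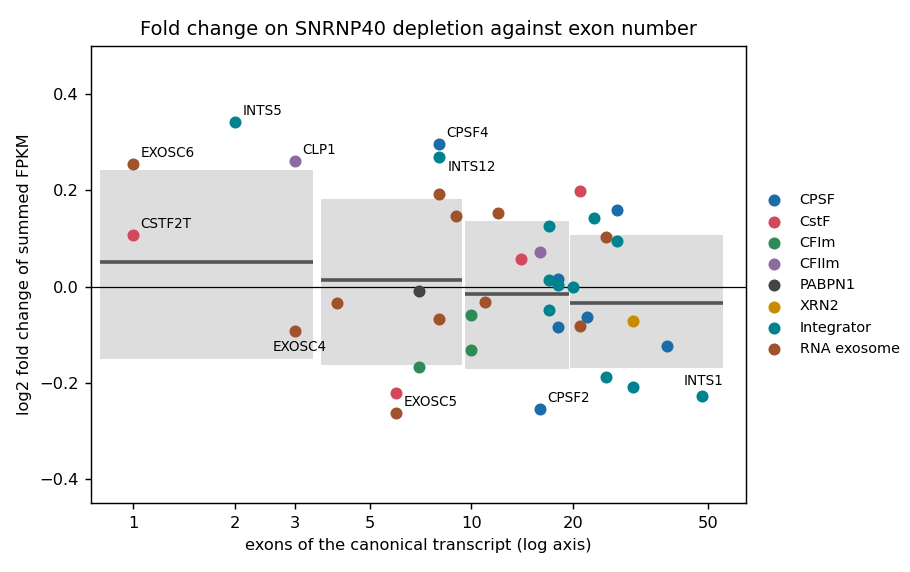
Log2 fold change of summed FPKM against the number of exons of the canonical transcript (log axis) for the 41 expressed members, with the median (line) and the range from quartile 1 to quartile 3 (band) of all expressed genes in 4 ranges of exon number. The members with at most 3 exons have a median of 0.25, and all genes with at most 3 exons a median of 0.050.

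The genes that work beside these complexes, and Integrator subunits named later, were taken from separate lists, of which 55 were expressed. They had 26 members above 0, 29 below and a median of -0.034. None exceeded 0.5, and 3 of the 55 lay below -0.5, a share near the 5.06% of all genes. These were RBM7, PPP1CA and DDX26B, which belong to different complexes.

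RBM7, the RNA-binding subunit of the nuclear exosome targeting complex, was at 13.2 FPKM after depletion and 19.6 FPKM in control cells (log2 fold change -0.57). ZCCHC8 and SKIV2L2, the other subunits of that complex, were added after their values were seen and had log2 fold changes of -0.088 and -0.089. PPP1CA, a catalytic subunit of protein phosphatase 1 that joins the polyadenylation machinery, was at 60.0 and 88.0 FPKM (log2 fold change -0.55). Its paralogue PPP1CB, which was not past the threshold and is named after its value was seen, was at 65.8 and 90.1 FPKM (log2 fold change -0.45). DDX26B, a paralogue of INTS6, was at 2.10 and 2.99 FPKM (log2 fold change -0.51). It no longer counted as past -0.5 at a minimum of 5 FPKM, with a pseudocount of 1 FPKM or with upper-quartile scaling, which left 2 genes. INTS6 itself was at 17.2 FPKM in both conditions.

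By list, the 13 genes listed as poly(A) polymerase and cleavage cofactors had a median of -0.029. The 8 Integrator associates and later named subunits had one of -0.091. The 21 genes listed as exosome cofactors had a median of -0.049, and the 6 listed as histone 3′ end factors one of -0.011. Not every gene of a list acts directly in the step that names it. The 7 genes listed as termination factors, XRN1 counted among them, had a median of 0.099. The highest value in all lists was 0.25, in NCBP2, the small subunit of the nuclear cap-binding complex, at 85.1 and 71.3 FPKM. In each of these lists the median lay within 0.1 of 0, as it did in the members as a whole.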

How the data were processed

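Total RNA of 4 LV-M100 libraries, 2 per condition, was sequenced on an Illumina HiSeq after ScriptSeq v2 preparation. According to the methods and the submitters' processing notes, adapters and low-quality bases were removed by the authors (cutadapt 1.2.1), alignment to hg19 used TopHat 2.0.8, transcript models came from Cufflinks followed by cuffmerge, and cuffdiff 2.0.2 compared the conditions. The strand setting is not given in the sources used here. The deposited values are FPKM, 1 per transcript and condition, with both libraries of a condition joined. The authors' columns of fold changes, test statistics, p-values and q-values were not used.

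FPKM was summed over the transcripts of a symbol, and log2(SNRNP40 siRNA / control siRNA) was taken without a pseudocount at a mean of at least 1 FPKM. Sizes of 0.5 and 1 on the log2 scale served as thresholds. With pooled conditions no test was computed, and the depth is unknown. The members and lists were chosen with earlier results of these data known. Values are given for SNRNP40, for the members with the highest and lowest level and fold change in each complex, for members past 0.5, for transcripts past 1 with at least 1 FPKM in both conditions, for members whose most abundant transcript differed, for all members of complexes of under 5 genes, and for related genes past 0.5. Other named genes were added after their values were seen.

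Related genes were matched through older RefSeq symbols. Exon number, GC content, 3′ untranslated regions and shared stretches of 50 bases came from canonical transcripts of GENCODE release 44 on GRCh37, which has the coordinates of hg19. Loci of members are those of the table. The computation ran in Python 3.11.15 with pandas 2.3.3, numpy 2.4.6, matplotlib 3.10.9 and scipy 1.17.1, and its steps were tested on simulated data. Alternatives were no minimum, a minimum of 5 FPKM, a pseudocount of 1 FPKM, centring on the median, upper-quartile scaling, and the most abundant transcript in place of the sum. For transcripts, the natural logarithm, a transcript minimum of 0.5 FPKM and share changes of at least 10 percentage points were also used. A value was taken as moved past 0.1 on the log2 scale, and a count past 1.5 times.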

Additional observations from a re-analysis of the deposited data

How the results depend on the processing

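Of 129 recomputed log2 fold changes of the 22 named members, 125 stayed within 0.1 of the reported value and 4 moved. A changed minimum left each fold change as it was, and centring or upper-quartile scaling shifted all by the same small amount. These settings could not move a value past 0.1, so the 125 are not a measure of stability. The most abundant transcript could differ from the sum only in genes listed with several transcripts. The 4 that moved did so where the most abundant transcript stood in place of the sum: CSTF1 to -0.41, FIP1L1 to 0.13, and, with the sign turned, CSTF3 to -0.17 and INTS9 to 0.72. The CstF median then was -0.059, the exosome median turned to 0.065, and the Integrator median was 0.11. Of 97 values of other results, 87 stayed and 10 moved. The count of members past 0.5 was 0 as reported and 2 without a minimum level (24.1% of all genes). These 2 were INTS4L1 and INTS4L2, which lay under 1 FPKM. The count was 1 (INTS9) with the most abundant transcript (15.7% of all genes). Past 1 the count was 1 without a minimum, where no share of all genes was computed. The related genes past 0.5 were 7 with the most abundant transcript, where 15.7% of all genes passed. They were 2 at 5 FPKM or more (5.85% of all genes), with a pseudocount of 1 FPKM (5.76%) or with upper-quartile scaling (10.2%). SNRNP40 was at -2.54 with a pseudocount of 1 FPKM. The count of member transcripts past 1 was 8 without a minimum, where 24.2% of all transcripts passed, and 0 at 5 FPKM or more, where 3.46% of all transcripts passed. The members with a share moved by 20 percentage points were 0 at 5 FPKM or more, beside 14.5% of all genes with several transcripts at that level. At 10 percentage points 4 passed, beside 41.0% of all genes with several transcripts. Upper-quartile scaling shifted the median of all genes to 0.034 and left the counts of members past 0.5 and past 1 at 0.

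No paired analysis was possible because both libraries of a condition share a single value in the table, so the replicate numbers carry no values of their own. For the same reason no library was left out in turn, and siSNRNP40 #1 and siSNRNP40 #2 were not compared. Depth is unknown. Values of members under 5 FPKM (INTS1, INTS5 and INTS9) and of single transcripts are the least certain. Exon number and GC content are those of annotated transcripts, not of the assembled ones.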
